A study of Mus musculus with 48 samples.

Results

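The genes described here encode subunits of heterotrimeric G proteins, the switches that carry a signal from a receptor at the cell surface to enzymes and ion channels. They are the alpha-subunit genes Gnal, Gnas, Gnao1, Gnai1, Gnai2, Gnai3 and Gnaz, the beta-subunit gene Gnb5 and the gamma-subunit genes Gng4 and Gng7. These 10 genes were taken by gene name from a count table of 48795 genes, and all 10 were among the 19714 genes that passed a filter on low counts and were tested. Striatal RNA was sequenced from 48 mice of 6 genotypes, with 8 mice per genotype (4 of each sex), all on a C57BL/6 background. Mice labelled Q140 x Msh3-/- and mice labelled Q140 x Msh3+/- combined both alleles, and the others were Q140, Msh3-/-, Msh3+/- and wild type (WT). The Q140 allele is a knock-in at Htt with a long CAG repeat, used to model Huntington's disease, and every mouse carrying it was labelled heterozygous. The product of Msh3 takes part in DNA mismatch repair; by their labels the Q140 crosses keep 1 or 0 intact Msh3 alleles. The labels give an age of 12 months for all groups, whereas the extraction text speaks of 6 months, and nothing in the labels settles which applies.

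A heterotrimeric G protein consists of an alpha subunit, which binds a guanine nucleotide, and a beta-gamma pair. In most of the brain the stimulatory alpha subunit that activates adenylyl cyclase is encoded by Gnas, whereas the spiny projection neurons of the striatum rely largely on Golf, whose alpha subunit is encoded by Gnal. Golf couples the dopamine receptor Drd1 and the adenosine receptor Adora2a to the adenylyl cyclase Adcy5, and the gamma subunit encoded by Gng7 is its striatal partner.

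The libraries held between 38.9 M and 60.9 M counts (M, 1e6). The RNA of Msh3 went against a loss of transcript: its mean was 115.5 ± 7.78 CPM in mice labelled Q140 x Msh3-/-, 74.9 ± 3.92 CPM in those labelled Q140 x Msh3+/- and 30.5 ± 1.19 CPM in Q140 mice (SD, n = 8 each), and 122.4 ± 3.10, 73.9 ± 1.56 and 29.0 ± 1.61 CPM in the libraries labelled Msh3-/-, Msh3+/- and WT. CPM are counts per 1e6 counts after TMM scaling, a correction for differences in library composition. Which part of Msh3 was altered is not given in the sources used here, so a count over the whole gene cannot check the alleles, and each genotype is called by its label. 4 mice had sample names with another prefix than the Mh3Q of the rest, 2 in Q140 and 2 in WT, and what the prefixes mark is not given. After genotype and sex were accounted for, 4 libraries stood apart on the first principal component: Q140 x Msh3-/- male 1, Q140 x Msh3+/- female 1 and Msh3-/- female 1 and male 1.

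Levels of different genes were compared per length, as FPKM (fragments per 1000 bases of gene and 1e6 counts). In WT striatum, Gng7 had the highest FPKM of the 10, with a median of 361.9 (lowest 311.6, highest 432.8, n = 8). Gnal followed with a median of 195.3 FPKM (194.0 to 209.8), then Gnb5 with 153.3 (138.9 to 181.3) and Gnao1 with 99.3 FPKM (97.9 to 103.6). Gnai2 had a median of 35.4 FPKM (34.2 to 38.5) and Gnas 30.8 FPKM (28.9 to 36.8), and the ranges of these neighbours overlapped. Below them came Gnai1 at 21.7, Gnaz at 17.1, Gnai3 at 8.00 and Gng4 at 3.75 FPKM, and no other neighbours in the order had overlapping ranges.

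This order depends in part on the length assigned to each gene. The length behind the deposited FPKM equalled the union of GENCODE M21 exons for 7 of the 10 genes, but it was 5761 bases for Gnal against a union of 11172, and 1188 bases for Gnb5 against 3115. With the exon union, the WT median of Gnal became 100.7 FPKM, beside 99.3 for Gnao1, and that of Gnb5 became 58.5 FPKM. With the longest coding transcript, Gnas reached a median of 87.4 FPKM, Gnal 196.1 and Gnao1 198.7 FPKM. Gng7 ranked first and Gng4 last under all 3 lengths, while the order of Gnal, Gnao1, Gnb5 and Gnas did not hold. In GENCODE M21 (GRCm38), Gnas lies on chromosome 2 (174284320 to 174346744, plus strand), Gnao1 on chromosome 8 (93809966 to 93969388, plus strand) and Gnaz on chromosome 10 (74967177 to 75016907, plus strand). Gnai1 lies on chromosome 5 (18265135 to 18360355, minus strand), Gnai2 on chromosome 9 (107614125 to 107635367, minus strand) and Gnai3 on chromosome 3 (108107280 to 108146146, minus strand). Chmp1b on the same strand within the Gnal gene had a median of 31.8 CPM and Mppe1 on the opposite strand 18.4 CPM; the strand setting of the counting is not given in the sources used here.

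**Figure D1:**
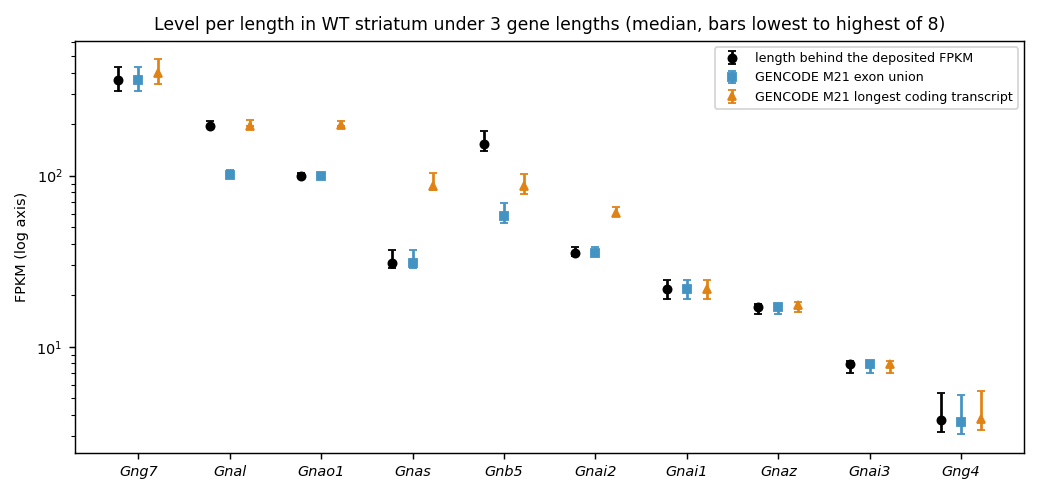
Level per length (FPKM, log axis) of the 10 subunit genes in WT striatum under 3 gene lengths; points are medians and bars run from the lowest to the highest of 8 libraries. Gng7 sits on top and Gng4 at the bottom under each length, while Gnas moves between 30.8 and 87.4 FPKM.

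In Q140 against WT striatum, 7 of the 10 genes passed the threshold (adjusted p under 0.05, edgeR's quasi-likelihood test), where 33.0% of all genes tested did. Gng4, Gnai1 and Gnai3 rose (17.0% of all genes were higher), and Gnal, Gnao1, Gnb5 and Gng7 fell (16.0% of all genes were lower). The size of the change had a median of 0.17 on the log2 scale over the 10 genes, ignoring sign, and of 0.14 over all genes tested. For 5 of the 10 genes the Q140 and WT ranges of CPM did not overlap, against 8.97% of all genes. Gnas, Gnai2 and Gnaz did not pass.

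**Figure D2:**
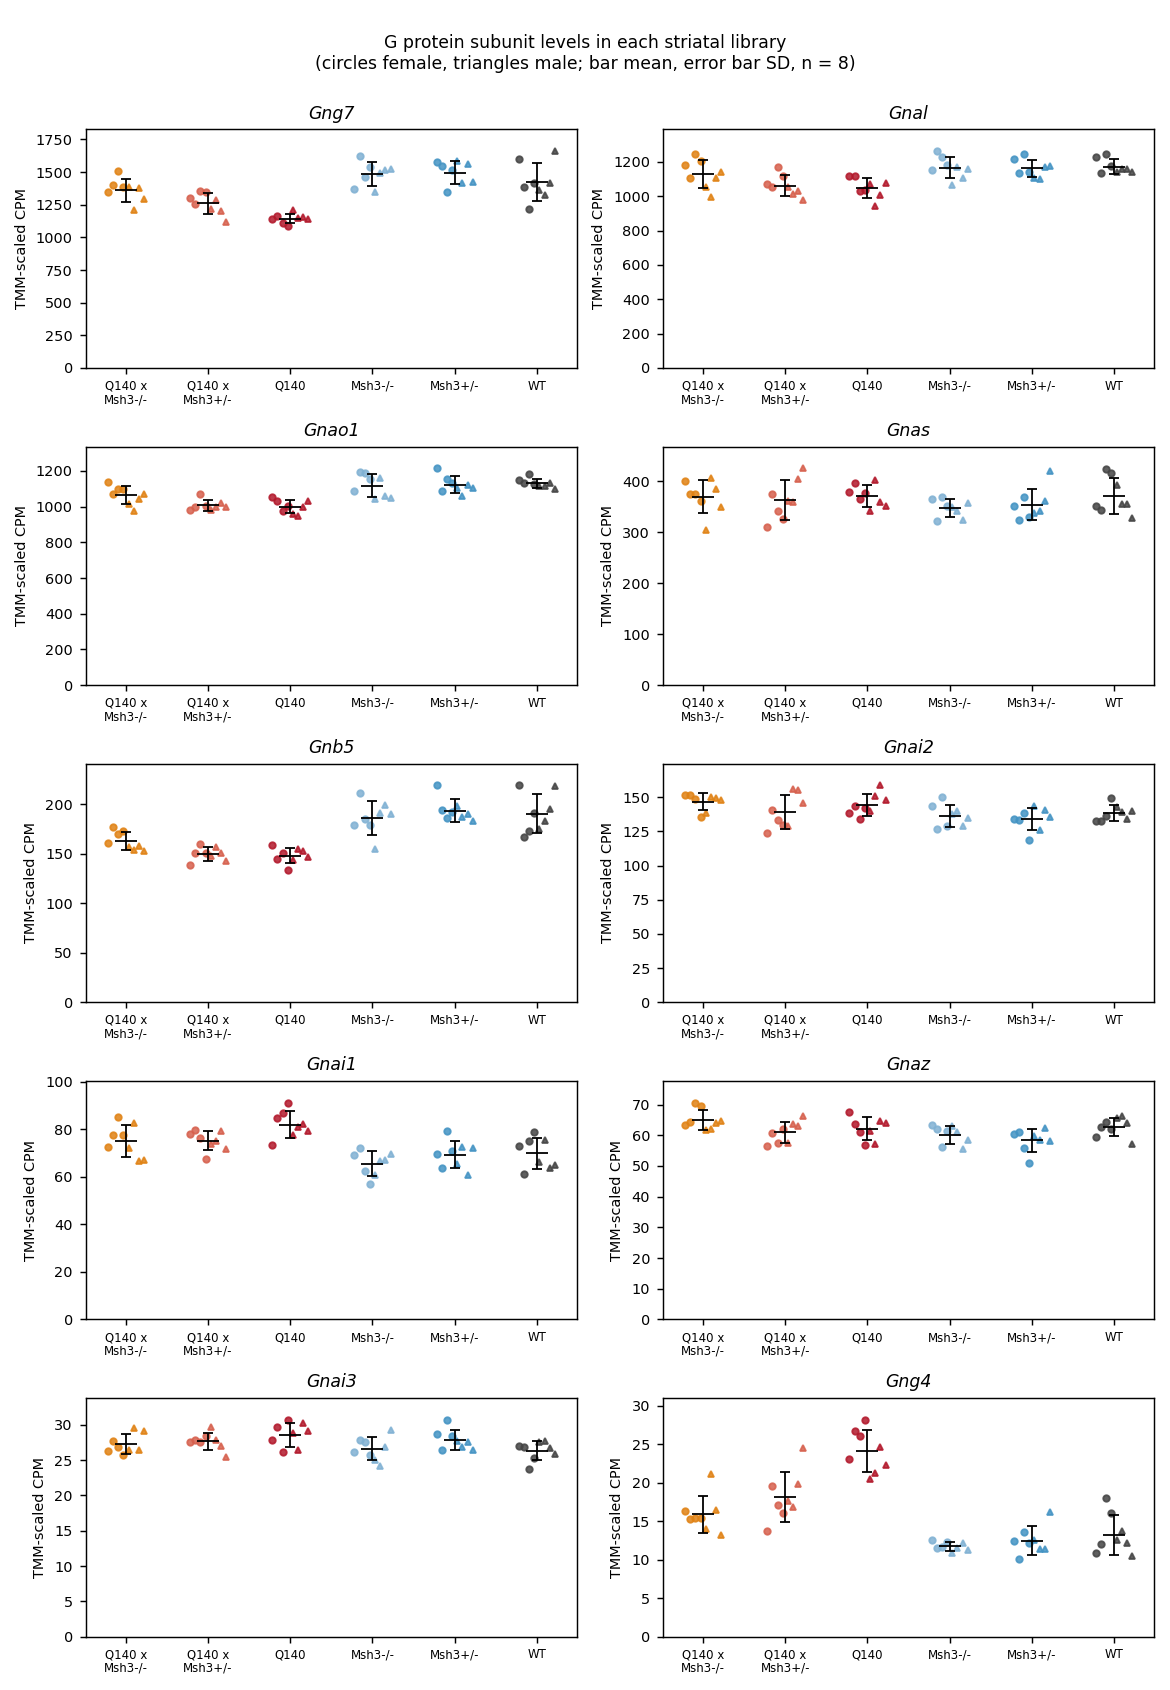
TMM-scaled CPM of each subunit gene in every striatal library, by genotype, with circles for females, triangles for males, and mean and SD over 8 mice. Mean Gng4 is highest in Q140 (libraries 20.5 to 28.2 CPM) and mean Gng7 is lowest there (1089 to 1208 CPM). Some libraries of both Q140 crosses lie inside these ranges.

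Striatal tissue holds several cell types, and in bulk RNA fewer cells of a type and less RNA per cell cannot be told apart. Of 9 spiny projection neuron markers, 8 fell and 1 (Tac1) rose in Q140 against WT, and their summed level ran from 5506 to 6221 CPM in Q140 and from 9882 to 10970 CPM in WT libraries. All 5 endothelial and mural markers fell (summed level 200.6 to 221.5 CPM in Q140, 240.8 to 298.5 CPM in WT), as did 4 of 6 astrocyte markers (1224 to 1383 CPM, against 1382 to 1550 CPM in WT) and 4 of 6 microglia markers (263.9 to 305.4 CPM, against 317.8 to 384.8 CPM in WT). All 3 cholinergic interneuron markers fell (90.7 to 105.2 CPM in Q140, 105.8 to 125.4 CPM in WT). Of the other lists, 2 of 6 oligodendrocyte, 1 of 3 oligodendrocyte precursor and 1 of 3 thalamic markers fell, 2 of 6 cortical markers rose, and 1 of 4 choroid plexus and ependymal markers rose and 1 fell. None of these markers was at 0. The part of these shifts in the changes of the G protein genes was not tested.

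Of the stimulatory pair, Gnal was called and Gnas was not. Gnal, the Golf alpha subunit, ran from 942.4 to 1117 CPM in Q140 libraries (median 1053) and from 1134 to 1246 CPM in WT libraries (median 1158). Every Q140 library lay below every WT library, and Gnal fell by 0.16 on the log2 scale (SE 0.0324, adjusted p = 7.819e-05), a change of -10.5%. Gnas, the stimulatory alpha subunit found in most cells, ran from 342.5 to 402.4 CPM in Q140 (median 371.6) and from 328.2 to 423.9 CPM in WT libraries (median 355.5). The ranges overlapped widely, and the log2 difference was 0.00 (SE 0.0582, 95% interval -0.11 to 0.12, adjusted p = 0.977). The 2 highest WT values of Gnas, 423.9 and 417.3 CPM, were the 2 WT libraries with another name prefix; with Mh3Q names alone the difference was 0.08 (adjusted p = 0.372).

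Within each library the count of Gnal was divided by that of Gnas. The ratio ran from 2.34 to 3.12 in Q140 (median 2.82) and from 2.82 to 3.51 in WT libraries (median 3.26). The log2 ratio was lower by a mean difference of -0.17, with 8 of 8 Q140 libraries below the WT mean, and the groups overlapped (2-sided exact permutation test, p = 0.0166, adjusted p = 0.0748 over 18 ratio tests). With Mh3Q names alone, which left 6 mice in each group, the difference was -0.23 and passed (exact permutation test, adjusted p = 0.0264).

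Among the inhibitory and Go alpha subunits the directions were mixed. Gnao1 encodes the alpha subunit of Go, the main G protein of neurons, and it ran from 947.3 to 1052 CPM in Q140 (median 999.6) and from 1098 to 1181 CPM in WT libraries (median 1130). The groups did not overlap, and Gnao1 fell by 0.18 (SE 0.0275, adjusted p = 5.97e-07). Gnai1, an alpha subunit that inhibits adenylyl cyclase, ran from 73.2 to 91.2 CPM in Q140 (median 81.5) and from 60.9 to 78.7 CPM in WT libraries (median 69.6). It rose by 0.23 (SE 0.0533, adjusted p = 4.924e-04) with overlapping ranges, and all 8 Q140 libraries lay above the WT mean; the call was lost in females alone. Gnai3, a close relative of Gnai1, ran from 26.1 to 30.7 CPM in Q140 (median 29.0) and from 23.8 to 27.8 CPM in WT libraries (median 26.9). It rose by 0.12 (SE 0.0404, adjusted p = 0.0174), and this call was lost with Mh3Q names alone, where the difference was 0.06 (adjusted p = 0.34), and in either sex alone.

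Gnai2, the third inhibitory alpha subunit, had a median of 142.7 CPM in Q140 and 138 CPM in WT libraries, a log2 difference of 0.06 (SE 0.0401, adjusted p = 0.265) with overlapping ranges. It was called higher when libraries were scaled by their totals instead of TMM, at 0.13 (adjusted p = 0.00722). Gnaz, a member of the same family that resists pertussis toxin, had a median of 62.6 CPM in Q140 and 63.3 CPM in WT libraries, a difference of -0.01 (SE 0.0399, adjusted p = 0.846). The count ratio of Gnal to Gnao1 stayed close to 1 in every group, with a median of 1.05 in Q140 and 1.04 in WT libraries (exact permutation test, p = 0.421, adjusted p = 0.627).

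Gnb5 encodes an unusual beta subunit that pairs with the R7 family of RGS proteins, which speed up the inactivation of Go and Gi. It ran from 133.2 to 158.5 CPM in Q140 (median 148.4) and from 167.4 to 219.1 CPM in WT libraries (median 187.1). Every Q140 library lay below every WT library, and Gnb5 fell by 0.36 (SE 0.0490, adjusted p = 4.129e-08), a change of -22.2%.

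The gamma-subunit genes moved in opposite directions. Gng7, the gamma subunit of Golf, ran from 1089 to 1208 CPM in Q140 (median 1144) and from 1216 to 1661 CPM in WT libraries (median 1402). The groups did not overlap, and Gng7 fell by 0.31 (SE 0.0457, adjusted p = 1.765e-07), a change of -19.6%. Gng4, another gamma subunit of neurons, ran from 20.5 to 28.2 CPM in Q140 (median 23.9) and from 10.5 to 18.0 CPM in WT libraries (median 12.3). It rose by 0.87 (SE 0.101, adjusted p = 2.045e-09), a change of 82.4%, again without overlap. Gng4 and Msh3 lie on the same chromosome, 78.4 Mb apart (Mb, 1e6 bases). The 2 highest WT values, 18.0 and 16.1 CPM, were the libraries with another name prefix; the 6 other WT libraries ran from 10.5 to 13.7 CPM, and with Mh3Q names alone the rise was 0.996 (SE 0.102, adjusted p = 1.798e-10).

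The sequences before the transcription starts of Gng7, Gng4 and Gnb5 are shown because these genes had the 3 largest changes among the 10 in Q140 and moved both ways. Each is the 250 bases before a RefSeq start (GRCm38.p6), 5′ to 3′ on the gene's strand, in lower case, with capitals on the matches described next. Gng7 lies on chromosome 10 (80948624 to 81014945, minus strand), Gng4 on chromosome 13 (13784059 to 13827896, plus strand) and Gnb5 on chromosome 9 (75306288 to 75345876, plus strand) in GENCODE M21. The windows are chr10:81014926-81015175 for Gng7, chr13:13783809-13784058 for Gng4 and chr9:75306038-75306287 for Gnb5. The M21 start of Gng7, 81014945, lies within its window, so the window's 3′ end, with the last GC box, is inside the M21 gene.
Gng7: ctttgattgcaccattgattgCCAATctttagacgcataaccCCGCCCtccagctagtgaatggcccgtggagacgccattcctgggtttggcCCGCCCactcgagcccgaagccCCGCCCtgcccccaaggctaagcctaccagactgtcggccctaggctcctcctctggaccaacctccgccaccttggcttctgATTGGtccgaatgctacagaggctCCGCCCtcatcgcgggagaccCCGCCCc
Gng4: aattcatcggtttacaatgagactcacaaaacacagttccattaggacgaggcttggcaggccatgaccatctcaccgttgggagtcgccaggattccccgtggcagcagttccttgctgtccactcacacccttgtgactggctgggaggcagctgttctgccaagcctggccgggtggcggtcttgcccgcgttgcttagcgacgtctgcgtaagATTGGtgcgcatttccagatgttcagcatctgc
Gnb5: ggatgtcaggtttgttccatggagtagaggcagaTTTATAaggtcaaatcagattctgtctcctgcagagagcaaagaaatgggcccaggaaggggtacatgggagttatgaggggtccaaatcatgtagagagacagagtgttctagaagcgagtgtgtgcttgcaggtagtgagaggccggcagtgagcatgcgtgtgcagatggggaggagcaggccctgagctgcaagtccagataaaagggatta
Exact matches were searched on both strands. The GC box was searched as GGGCGG and the CCAAT box by the letters of its name. The TATA box was searched as TATAAA. For the cAMP response element, the letters were TGACG, which the full element TGACGTCA contains. The Gng7 window held 5 GC boxes and 2 CCAAT boxes, the Gng4 window 1 CCAAT box and no GC box, and the Gnb5 window 1 TATA box and neither of the others. The TATA match of Gnb5 lies on the strand opposite to the gene, where it reads TTTATA, and near the window's 5′ end, far from the start. Over 32851 RefSeq windows of the same length, 32.7% held a GC box, 33.9% a CCAAT box, 17.8% TGACG and 12.4% a TATA box. None of the 3 windows held TGACG. Their GC content was 62.8% for Gng7, 56.4% for Gng4 and 50.8% for Gnb5, and the median of all windows was 52.4%. A match is a stretch of letters and was not tested as a binding site.

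The count of Gng7 relative to Gng4 joined both movements in a single value per library. It ran from 38.6 to 59.0 in Q140 (median 48.1) and from 67.6 to 158.4 in WT libraries (median 111.9), without overlap. The mean log2 ratio was lower by -1.19, which is 0.44 times the WT ratio (2-sided exact permutation test, p = 0.000155, the smallest p that 8 against 8 mice can give; adjusted p = 0.0028 over 18 tests). All 8 Q140 libraries lay below the WT mean. Each gene alone already separated these groups, in opposite directions, so the ratio had to separate them too. Its p is therefore no evidence beyond the calls of Gng7 and Gng4.

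**Figure D3:**
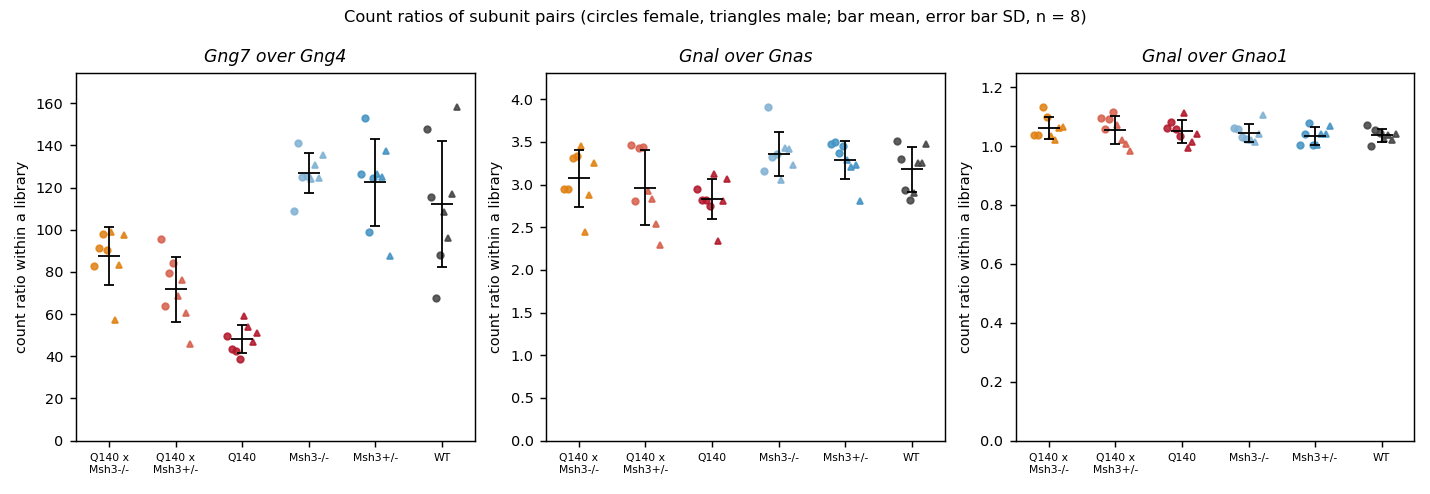
Count ratio of 3 pairs of subunit genes within each library, by genotype, with circles for females, triangles for males, and mean and SD over 8 mice. The ratio of Gng7 to Gng4 lies between 38.6 and 59.0 in Q140 libraries, below every WT library, while Gnal to Gnao1 stays near 1 throughout.

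With both Msh3 alleles labelled as lost in Q140 mice, 5 of the 10 genes differed from Q140, where 16.3% of all genes did. Gnal, Gnao1, Gnb5 and Gng7 were higher (8.75% of all genes were) and Gng4 was lower (7.57% of all genes were). With libraries scaled by their totals, and with limma on FPKM, 1 was higher and 2 were lower. For 0 of the 10 genes did the ranges separate (2.87% of all genes). This comparison and Q140 against WT share the 8 Q140 libraries, so the values are set side by side without a test of their relation.

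Gng7 ran from 1207 to 1509 CPM in Q140 x Msh3-/- libraries (median 1380) and from 1089 to 1208 CPM in Q140 libraries. All but the lowest Q140 x Msh3-/- library lay above all Q140 libraries, and the difference was 0.25 (SE 0.0457, adjusted p = 5.083e-05). Gng4 ran from 13.3 to 21.1 CPM in Q140 x Msh3-/- libraries (median 15.4) and from 20.5 to 28.2 CPM in Q140 libraries. Its difference was -0.60 (SE 0.1, adjusted p = 1.616e-05), with 1 Q140 x Msh3-/- library, male 2 at 21.1 CPM, inside the Q140 range.

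Gnal ran from 994.9 to 1244 CPM in Q140 x Msh3-/- libraries (median 1124), against 942.4 to 1117 CPM in Q140, a difference of 0.10 (SE 0.0324, adjusted p = 0.0193). Gnao1 had a median of 1069 CPM in Q140 x Msh3-/- libraries and 999.6 CPM in Q140 libraries, a difference of 0.09 (SE 0.0275, adjusted p = 0.0193). Gnb5 had a median of 159.5 CPM in Q140 x Msh3-/- libraries and 148.4 CPM in Q140 libraries, a difference of 0.14 (SE 0.0490, adjusted p = 0.0459). The groups overlapped for these 3 genes. Of 12 other settings, the call was lost in 5 for Gnal, 6 for Gnao1 and 8 for Gnb5, whereas those of Gng7 and Gng4 were lost only in the males alone. In males, the difference of Gng4 was -0.45 (adjusted p = 0.0768) and that of Gng7 0.18 (adjusted p = 0.115); in females they were -0.74 and 0.32, and the difference between the sexes in this contrast was not tested.

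Gnai1 differed by -0.13 (SE 0.0532, adjusted p = 0.0997) between Q140 x Msh3-/- and Q140, and Gnas, Gnai2, Gnai3 and Gnaz by -0.01, 0.02, -0.07 and 0.07, none of them called. The spiny projection neuron markers were also higher in this comparison, 8 of 9 of them, with summed levels of 7045 to 9096 CPM in Q140 x Msh3-/- libraries and 5506 to 6221 CPM in Q140 libraries. Their part in these differences was not tested. The ratio of Gng7 to Gng4 ran from 57.3 to 99.1 in Q140 x Msh3-/- libraries (median 90.9) and from 38.6 to 59.0 in Q140 libraries. It was higher by 0.86 on the log2 scale, 1.81 times (exact permutation test, p = 0.000311, adjusted p = 0.0028), with 8 of 8 libraries above the Q140 mean.

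**Figure D4:**
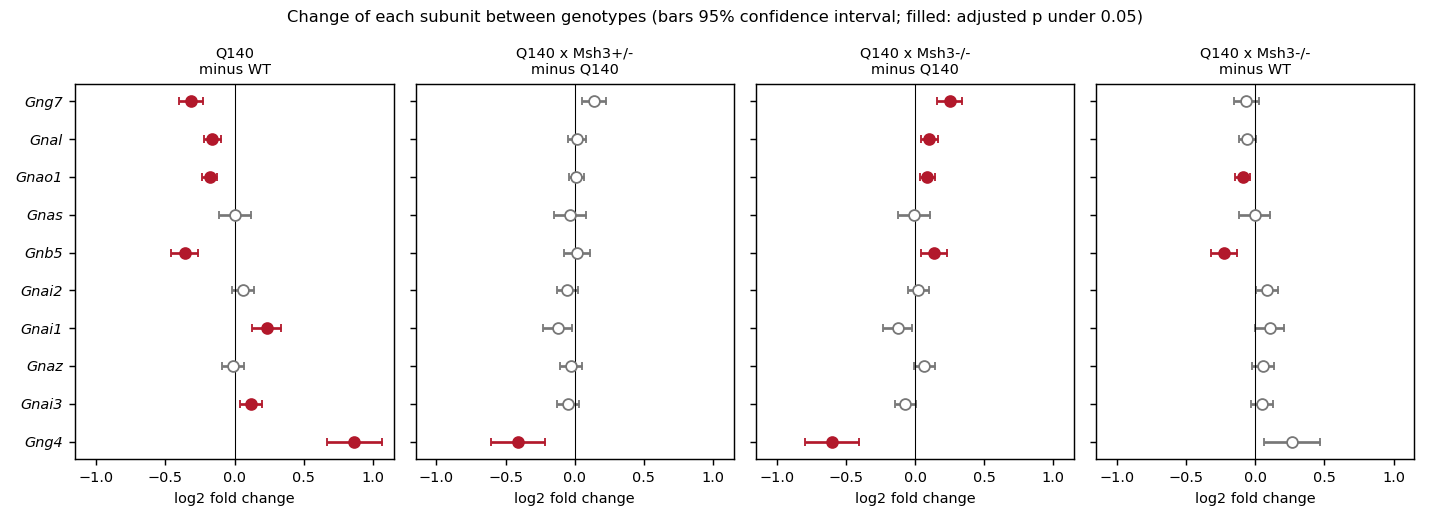
log2 fold change of each subunit gene in 4 comparisons, with 95% confidence intervals; filled points passed the threshold. Gng4 and Gng7 lie on opposite sides of 0 in the first panel, at 0.87 and -0.31, and change sides in the third panel, at -0.60 and 0.25.

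With 1 Msh3 allele labelled as lost, only Gng4 of the 10 genes differed from Q140, where 1.32% of all genes did. It ran from 13.7 to 24.6 CPM in Q140 x Msh3+/- libraries (median 17.4), overlapping the Q140 range of 20.5 to 28.2 CPM, and was lower by a difference of -0.41 (SE 0.0994, adjusted p = 0.0223). The call was lost with name prefix as a term (-0.34, adjusted p = 0.0792), without the libraries that stand apart (-0.36, adjusted p = 0.0837) and in males alone (-0.17). Gng7 had a median of 1270 CPM in Q140 x Msh3+/- libraries and 1144 CPM in Q140 libraries, a difference of 0.14 (SE 0.0456, adjusted p = 0.118). The ratio of Gng7 to Gng4 was higher by 0.56 on the log2 scale (median 72.5 in Q140 x Msh3+/-, 48.1 in Q140; exact permutation test, p = 0.00218, adjusted p = 0.0131). Of the spiny projection neuron markers, 6 of 9 were higher here, and their part was not tested.

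Between the crosses, Q140 x Msh3-/- against Q140 x Msh3+/-, edgeR called 0 of the 10 genes at the adjusted threshold, where 3.23% of all genes passed. DESeq2 and limma also called 0. In edgeR, 5 of the 10 had an unadjusted p under 0.05, as did 2995 of the 19714 genes tested. Gnb5 ran from 152.9 to 176.9 CPM in Q140 x Msh3-/- and from 139.1 to 159.5 CPM in Q140 x Msh3+/- libraries, overlapping ranges with a difference of 0.12 (SE 0.0490, adjusted p = 0.192). Of the spiny projection neuron markers, 8 of 9 were higher in Q140 x Msh3-/-, where 2.29% of all genes were. Their summed levels were 7045 to 9096 CPM there and 6167 to 7406 CPM in Q140 x Msh3+/- libraries. Of 19 receptor, effector and regulator genes described below, 8 were higher. The part of the markers was not tested.

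Without Q140, the labelled loss of Msh3 alleles left the 10 genes without a call. In Msh3-/- against WT, 0 of 10 passed in edgeR, DESeq2 and limma, and edgeR called 0.0457% of all genes. An unadjusted edgeR p under 0.05 was seen in 0 of the 10 and in 1187 of the 19714 genes tested. In Msh3+/- against WT, 0 of 10 passed in the same 3 tools, and edgeR called 0.0101% of all genes. An unadjusted edgeR p under 0.05 was seen in 1 of the 10 (Gnaz, difference -0.10) and in 937 of the 19714 genes tested. Gng4 had medians of 11.6 CPM in Msh3-/-, 12.3 in Msh3+/- and 12.3 CPM in WT libraries, and Gng7 1506, 1531 and 1402 CPM.

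The Q140 allele was also compared within each Msh3 genotype. In Q140 x Msh3+/- against Msh3+/-, 5 of the 10 genes were called, where 21.5% of all genes were. Gnal (-0.13), Gnao1 (-0.16), Gnb5 (-0.37) and Gng7 (-0.25) were lower and Gng4 (0.54, SE 0.102) was higher. Scaled by library totals, 3 were lower and 4 higher. Of the spiny projection neuron markers, 8 of 9 were lower and 1 higher here, with summed levels of 6167 to 7406 CPM in Q140 x Msh3+/- and 10160 to 10960 CPM in Msh3+/- libraries, and 4 of 5 endothelial and mural markers were lower (197.2 to 226.5 CPM, against 189.4 to 266 CPM in Msh3+/-). Also lower were 3 of 6 oligodendrocyte, 2 of 3 cholinergic interneuron, 2 of 6 astrocyte and 1 of 6 microglia markers, and 1 of 6 cortical markers was higher. Gnb5 did not overlap between these groups, 139.1 to 159.5 CPM in Q140 x Msh3+/- and 182.9 to 219.1 CPM in Msh3+/- libraries, and it was the only gene of the 10 (4.60% of all genes). On the Msh3-/- background, Q140 x Msh3-/- against Msh3-/-, 3 of the 10 were called, where 7.86% of all genes were. Gnai1 (0.19, SE 0.0536) and Gng4 (0.44, SE 0.103) were higher and Gnb5 (-0.19, SE 0.0490) was lower. Gng4 did not overlap here, 13.3 to 21.1 CPM in Q140 x Msh3-/- and 10.9 to 12.6 CPM in Msh3-/- libraries, and was 1 of 10 (1.09% of all genes). Without the 4 libraries that stand apart, 6 of the 10 were called, and with library totals 4 were higher and 1 lower. Here 7 of 9 spiny projection neuron markers were lower, with 7045 to 9096 CPM in Q140 x Msh3-/- and 9600 to 11140 CPM in Msh3-/- libraries. So were 1 of 5 endothelial and mural markers and 1 of 6 oligodendrocyte markers, while 1 of 6 cortical markers was higher. The part of the markers in either comparison was not tested.

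Set against WT, Q140 x Msh3-/- differed in 2 of the 10 genes, where 6.28% of all genes did. Gnb5 was lower, with 152.9 to 176.9 CPM in Q140 x Msh3-/- and 167.4 to 219.1 CPM in WT libraries (-0.22, SE 0.0489, adjusted p = 0.00166). Gnao1 differed by -0.09 (SE 0.0275, adjusted p = 0.034), a call that held in 3 of the 12 other settings. Gng4 did not pass at 0.26 (SE 0.102, adjusted p = 0.117), yet it passed with Mh3Q names alone at 0.42 (adjusted p = 0.00464). The log2 ratio of Gng7 to Gng4 differed by -0.33 (exact permutation test, p = 0.0682, adjusted p = 0.246), and by -0.50 with Mh3Q names alone (exact permutation test, adjusted p = 0.012). Of the spiny projection neuron markers, 7 of 9 were lower than in WT, and their part was not tested.

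Whether the Q140 change depends on the Msh3 genotype was tested as an interaction, the Q140 change on the Msh3 background minus that on the WT background. For Msh3-/-, edgeR called 0 of the 10 genes, while 6.15% of all genes passed. In edgeR, 6 of the 10 had an unadjusted p under 0.05, as did 3742 of the 19714 genes tested. The lowest adjusted p were those of Gng4 (-0.43, SE 0.144, adjusted p = 0.065), Gng7 (0.19, SE 0.0645, adjusted p = 0.0687) and Gnao1 (0.11, SE 0.0389, adjusted p = 0.0875). DESeq2 called 2 of them, Gng4 and Gnao1, and limma called Gng4; over the 12 other settings the adjusted p of Gng4 ran from 0.00826 to 0.618. Of the spiny projection neuron markers, 8 of 9 passed this interaction, all positive, and their part was not tested. For Msh3+/-, edgeR, DESeq2 and limma called 0 of the 10, and 0.0152% of all genes passed in edgeR. In edgeR, 2 of the 10 had an unadjusted p under 0.05, as did 1791 of the 19714 genes tested.

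Sex was a term of the fit. Males were lower than females in 2 of the 10 genes, where 2.61% of all genes were lower in males and 4.26% differed by sex in either direction. Gnal averaged 1089 ± 68.0 CPM in males and 1159 ± 69.1 CPM in females (SD, n = 24 each), a difference of -0.09 (SE 0.0187, adjusted p = 0.00199). Gnao1 averaged 1050 ± 59.4 CPM in males and 1097 ± 71.4 CPM in females, a difference of -0.06 (SE 0.0159, adjusted p = 0.0146). The Q140 change differed by sex in 0 of the 10 genes and 0% of all genes, by edgeR, DESeq2 and limma. In edgeR, 0 of the 10 had an unadjusted p under 0.05, while 658 of the 19714 genes tested did.

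The 10 genes were also compared within groups. Residuals of log2 CPM after genotype and sex gave 45 pairs over the 48 mice, of which 7 passed a permutation test within genotype and sex (100000 permutations, adjusted over 45). Gnas and Gng4 had the highest correlation, with Pearson r = 0.78 (permutation p = 1e-05, the smallest they can give; adjusted p = 0.000225) and Spearman rho = 0.69 (permutation p = 0.00012, adjusted p = 0.00135). It was 0.77 without the 2 mice farthest from the median of Gnas, 0.75 with Mh3Q names alone and 0.77 without the libraries that stand apart. Gnb5 and Gng7 gave r = 0.70 (permutation p = 1e-05, adjusted p = 0.000225; rho = 0.65, permutation p = 1e-05), with 0.64 without the 2 farthest mice and 0.67 with Mh3Q names alone. Gnal and Gnao1 gave r = 0.69 (permutation p = 2e-05, adjusted p = 0.0003; rho = 0.66, permutation p = 2e-05), with 0.64 without the 2 farthest and 0.66 with Mh3Q names alone. Gng4 and Gng7 were inversely related, with r = -0.64 (permutation p = 0.00015, adjusted p = 0.00135; rho = -0.53, permutation p = 0.00247), with -0.54 without the 2 farthest and -0.59 with Mh3Q names alone. Genes of 1 library share its depth and scaling. How many pairs of other genes would pass the same test was not computed, so 7 of 45 has no background to be set against.

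The genes most alike in pattern were chosen by the highest Pearson r of log2 CPM over the 48 libraries among 13832 genes; the genotype differences enter this r. For Gnal these were Rab6b (r = 0.89), Gnao1 (0.88), Tppp (0.88), Atp2a2 (0.87) and Ano3 (0.87), with r of 0.69 to 0.80 after genotype and sex were removed. For Gng7 they were Rasd2 (0.95), Syndig1l (0.94), Rasl10b (0.93), Phyhip (0.93) and Mprip (0.93), with r of 0.76 to 0.93 after removal. For Gng4 they were Tmem130 (0.93), Enah (0.92), Sfmbt2 (0.90), Ndrg3 (0.90) and Cnrip1 (0.90), with r of 0.56 to 0.80 after removal.

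Of 23 other subunit genes, 18 were tested. In Q140 against WT, 4 rose and 2 fell, a share of calls close to the 33.0% of all genes. Gng3, a gamma subunit of neurons, rose by 0.63 (SE 0.0506), with 93.8 to 128.7 CPM in Q140 and 70.0 to 78.4 CPM in WT libraries. Gnaq, the alpha subunit that activates phospholipase C, rose by 0.13, as did Gnb4 (0.14) and Gng12 (0.11), while Gnb2 fell by 0.24 and Gng2 by 0.23. Their median was 0.05 and that of all genes 0.00. In Q140 x Msh3-/- against Q140, Gng3 (-0.26) and Gnaq (-0.13) were lower and Gnb2 (0.12) was higher, 3 of 18 where 16.3% of all genes were called.

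Of 21 receptor, effector and regulator genes that work with these subunits, 19 were tested, and 11 fell (16.0% of all genes did) and 2 rose (17.0% of all genes did) in Q140 against WT, with a median of -0.15 beside 0.00 for all genes. Among the R7 family, whose members bind Gnb5, Rgs9 fell by 0.83, Rgs11 by 0.93, Rgs6 by 0.15 and Rgs7 by 0.11, and the anchor gene Rgs7bp fell by 0.50. Rgs9 ran from 458.4 to 577.2 CPM in Q140 and from 824.5 to 998.5 CPM in WT libraries. Ric8b, a chaperone of the stimulatory alpha subunits, fell by 0.24, with 135.5 to 155.5 CPM in Q140 and 160.6 to 178.2 CPM in WT libraries. Pdcl, which helps beta-gamma pairs to assemble, rose by 0.22 and the receptor kinase gene Grk2 by 0.16. The Golf-coupled receptor genes Drd1 and Adora2a fell by 0.71 and 1.004, and Adcy5, their effector, fell by 0.83. Drd2 and Chrm4, receptors that act through Gi and Go, fell by 0.73 and 0.79. In Q140 x Msh3-/- against Q140, 9 of the 19 were higher (8.75% of all genes) and 2 (Pdcl and Ric8a) lower (7.57% of all genes). Adcy5 was higher by 0.52, Rgs9 by 0.49 and Ric8b by 0.16. Rgs9, Drd1 and Adora2a are also in the list of spiny projection neuron markers given above.

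**Figure D5:**
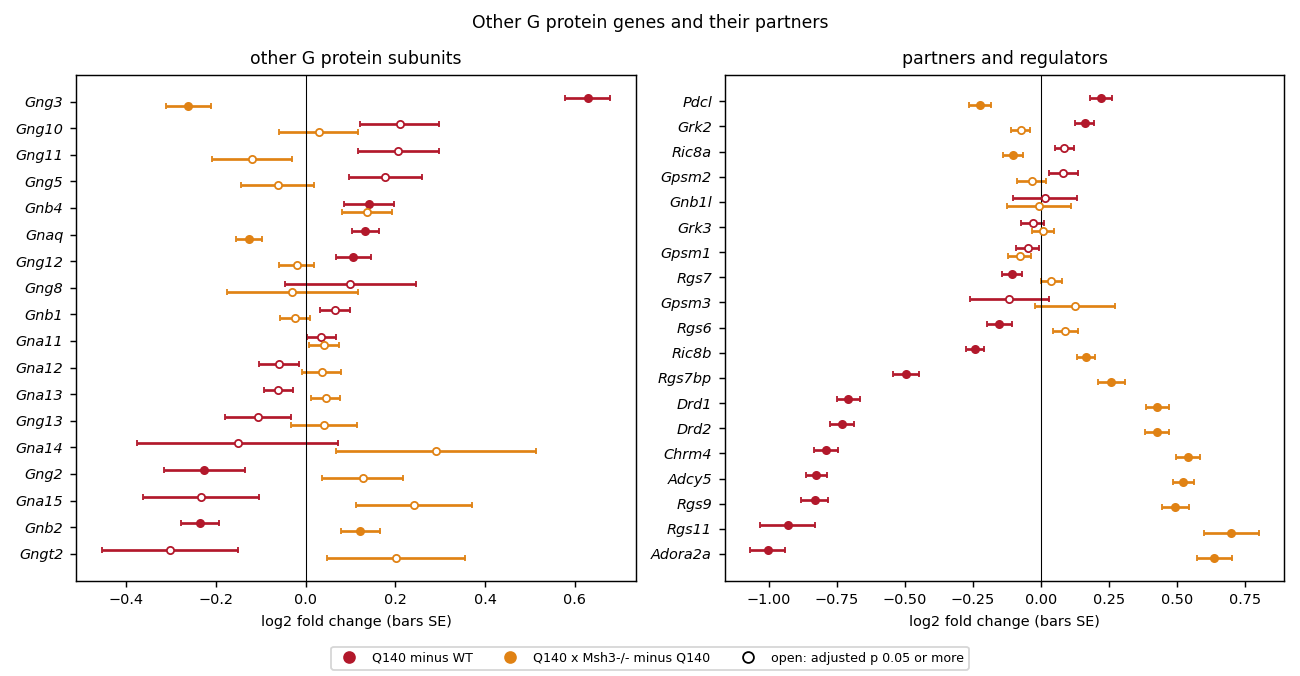
log2 fold change with SE of the other G protein subunit genes and of their partners and regulators, for Q140 minus WT and for Q140 x Msh3-/- minus Q140; open points did not pass the threshold. Gng3 has the highest Q140 value among the other subunits at 0.63 and Adora2a the lowest among the partners at -1.004.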

How the data were processed

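Per the labels' protocols, stranded libraries were made from striatal RNA of 48 mice. Counts per gene and FPKM are the values that the authors deposited. Per the submitters' processing notes, STAR 2.7.5c, SAMtools 1.10 and HTSeq 0.12.3 were used with a mouse GRCm38 (mm10) genome; neither annotation release nor strand setting was given in the sources used here. Counts were tested with edgeR 4.0.16 (R 4.3.3; TMM, quasi-likelihood F-test, Benjamini-Hochberg adjustment) after filterByExpr with a minimum count of 10, which left 19714 of 48795 genes. The fit held all 48 libraries and a term each for genotype and sex, leaving 41 residual degrees of freedom. Library totals ran from 38.9 M to 60.9 M, and the smallest count of any described gene in any library was 452. No 2 libraries held identical values. The labels tie each library to 1 mouse. Some sample names share the number that follows the prefix, within and between genotypes. What that number marks is not given, and the fit treated all mice as independent.

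The count ratios were tested with exact permutation tests (SciPy 1.17.1, NumPy 2.4.6, Python 3.11.15), 2-sided. Alternatives were DESeq2 1.42.0, library totals, no filter, Mh3Q sample names alone, name prefix or plate column as a term, no sex term, a replicate block, each sex alone, and limma 3.58.1 on log2(FPKM + 0.1) of the deposited FPKM. Leaving out the libraries that stand apart (over 3 median absolute deviations) and other gene lengths were added after seeing the data. Only the edgeR fit was tested on simulated data, and only for Q140 against WT. The 10 genes, the lists and the tests were chosen with earlier results of these data known. Genes of the other lists are named where they passed in Q140 against WT or in Q140 x Msh3-/- against Q140; those alike in pattern are the 5 with the highest r among genes whose log2 CPM averaged 1 or more. Replicate numbers were checked for pairing: of 8 same-numbered pairs per comparison, between 0 and 3 correlated above 0.1. The most were 3 in Q140 x Msh3+/- against Msh3+/- and 2 in Q140 x Msh3-/- against Msh3-/- (highest r 0.36), so no comparison met the condition of all 8, and the numbers were not taken to pair mice.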

Additional observations from a re-analysis of the deposited data

Results flagged for a closer look

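In 7 of 78 groups of 8 mice, the highest or lowest library lay farther from its nearest neighbour than Dixon's 95% critical value allows; chance flags about 1 in 20 groups. Gng4 in Q140 x Msh3-/- male 2 was 21.09 CPM, and the 7 others ran from 13.26 to 16.51 CPM. The same library had the lowest Gng7 to Gng4 ratio of its group, 57.25, against 82.57 to 99.09 in the others. In Q140 x Msh3+/-, Gnao1 was highest in female 3 at 1073 CPM, and the others ran from 980.8 to 1021 CPM. In Msh3-/-, the Gnal to Gnas ratio was highest in female 2 at 3.914, and the others ran from 3.058 to 3.43. In Msh3+/-, Gnas was highest in male 4 at 420.0 CPM (others 324.9 to 369.1 CPM), where the Gnal to Gnas ratio was lowest at 2.804 (others 3.205 to 3.495). Gnb5 was highest in Msh3+/- female 1 at 219.1 CPM, and the others ran from 182.9 to 198.4 CPM. None of these libraries is among the 4 that stand apart.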

How the results depend on the processing

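No described gene changed direction among its calls under any alternative. In Q140 against WT, Gnal, Gnao1, Gnb5, Gng4 and Gng7 kept their calls in all 12 alternatives. Single-sex fits hold 4 mice per genotype, and the causes of the other changes below were not tested.

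Of the 10 genes, 7 were called in Q140 against WT (3 higher, 4 lower). This count became 8 with library totals or limma, 6 with Mh3Q names alone or in males, and 5 in females. The call of 1 in Q140 x Msh3+/- against Q140 became 0 with name prefix as a term, 0 in males only and 0 without the libraries that stand apart. In Q140 x Msh3-/- against Q140, 5 (4 higher, 1 lower) became 4 with no filter, Mh3Q names alone or name prefix (3 higher, 1 lower each). They became 3 with library totals or limma on FPKM (1 higher, 2 lower each), 3 with plate column or no sex term (2 higher, 1 lower each), 2 in females and 0 in males. In Q140 x Msh3+/- against Msh3+/-, 5 (1 higher, 4 lower) became 7 with library totals (4 higher, 3 lower), 8 with limma (4 higher, 4 lower) and 3 in females. In Q140 x Msh3-/- against Msh3-/-, 3 (2 higher, 1 lower) became 5 with library totals or limma (4 higher, 1 lower each), 6 without the libraries that stand apart, 0 in females and 1 in males. In Q140 x Msh3-/- against WT, 2 (both lower) split into 1 higher and 1 lower with limma, Mh3Q names alone or name prefix as a term. They became 1 with library totals, no filter, no sex term, males only or without the libraries that stand apart, and 0 in females. For the interaction with Msh3-/-, 0 became 2 with DESeq2 or Mh3Q names alone, and 1 with library totals, name prefix or limma. Library totals moved the median of all genes by 0.07 in Q140 against WT.

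Over all genes, the calls in females and in males were 3925 and 3144 in Q140 against WT (6506 with both sexes), 1648 and 518 in Q140 x Msh3-/- against Q140 (3217), 127 and 84 between the crosses (637), 1622 and 2218 in Q140 x Msh3+/- against Msh3+/- (4247), 208 and 373 in Q140 x Msh3-/- against Msh3-/- (1549), 158 and 466 in Q140 x Msh3-/- against WT (1239, and 1870 with limma), and 489 and 114 for the interaction with Msh3-/- (1213). In Q140 x Msh3+/- against Q140, 260 became 444 with DESeq2, 422 with plate column, 133 with name prefix, 154 without the libraries that stand apart and 1 in males. Msh3+/- against WT gave 2, then 5 with DESeq2 and 1 in either sex; Msh3-/- against WT gave 9, then 5 in females. The interaction with Msh3+/- gave 3, then 51 with DESeq2, 5 with library totals, 10 with plate column or limma and 0 in males. Only the larger changes of these counts over all genes are listed.

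With Mh3Q names alone, the log2 ratio of Gng7 to Gng4 passed in Q140 x Msh3-/- against WT at -0.50 (-0.33 with all mice, which did not pass), and that of Gnal to Gnas in Q140 against WT at -0.23 (-0.17 with all mice, which did not pass). In females, Gng7 to Gng4 differed by -1.21 in Q140 against WT, 0.88 in Q140 x Msh3+/- against Q140 and 1.06 in Q140 x Msh3-/- against Q140, and in males by -1.17, 0.23 and 0.65; with 4 against 4 mice the smallest exact p is 0.0286, and none passed after adjustment.

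The replicate numbers share only a number. With the replicate block, 7 of the 10 genes were called in Q140 against WT and 5 in Q140 x Msh3-/- against Q140, and no count of calls among the 10 changed.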
